A study of Mus musculus with 7 samples.

Results

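The metalloproteinase genes of the mouse kidney were followed here in a lupus-prone strain: the matrix metalloproteinases (MMP), the ADAM and ADAMTS proteinases, the ADAMTS-like proteins and the tissue inhibitors of metalloproteinases (TIMP). Members were chosen by name, as protein-coding genes whose symbol is Mmp, Adam, Adamts, Adamtsl or Timp followed by a digit. The rule found 83 genes of the 53465 in the count table: 22 MMP, 33 ADAM, 19 ADAMTS, 5 ADAMTSL and 4 TIMP genes. The kidneys came from 4 AZD1152-treated (barasertib) and 3 vehicle-treated MRL/lpr animals, and each gave 1 poly(A)-selected library. All 7 mice carry the lpr defect in Fas and the MRL background, which gives a spontaneous lupus-like nephritis, so no kidney without that background was compared. AZD1152 is a prodrug of an Aurora kinase B inhibitor, and the labels used here give no dose, schedule or age. The question put to the members was which of them differed between treated and vehicle kidneys.

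MMP enzymes are zinc-dependent proteinases that cut collagens, laminins, elastin and many cell-surface and soluble proteins. Most are secreted as inactive precursors, and the membrane-type enzymes work at the cell surface. ADAM proteins are membrane-anchored relatives, and those with an active site shed the outer parts of receptors, cytokines and growth factor precursors. ADAMTS enzymes are secreted, bind the matrix, and cut proteoglycans, procollagens or von Willebrand factor, while ADAMTS-like proteins lack the catalytic domain and act in the matrix. TIMP proteins bind the active site and block these enzymes. In diseased kidney they are studied for their part in matrix turnover, leukocyte entry and scarring.

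The promoters of the members that passed the test are shown because they are the stretch of DNA from which the changed transcripts start, and those of 4 MMP genes because they share letters that most other promoters lack. RefSeq sequences (GRCm38.p6) of 300 bases were found for 52 of the 83 members and run 5′ to 3′ on the gene's own strand, with 50 bases after the start. 6 motifs were searched on both strands: AP-1 (TGANTCA), STAT (TTCNNNGAA), NF-kB (GGGA, any pair of bases, then TTCC), CRE (TGACGTCA), the GC box (GGGCGG) and the TATA box (TATAAA). Capitals mark every match in the sequences below, where no match of one motif overlapped that of another; a match may read on the other strand, as CCGCCC for the GC box. In order, the promoters lie at chrX:20869916-20870215, plus strand for Timp1, chr10:86300162-86300461, plus strand for Timp3, chr14:54431348-54431647, plus strand for Mmp14, chr7:139992513-139992812, minus strand for Adam8, chr11:46055734-46056033, plus strand for Adam19, and chr16:85803064-85803363, minus strand for Adamts1. Adam19 has 3 RefSeq promoters, and the one whose start lies 8 bases from the annotated start of the gene is printed.
Timp1: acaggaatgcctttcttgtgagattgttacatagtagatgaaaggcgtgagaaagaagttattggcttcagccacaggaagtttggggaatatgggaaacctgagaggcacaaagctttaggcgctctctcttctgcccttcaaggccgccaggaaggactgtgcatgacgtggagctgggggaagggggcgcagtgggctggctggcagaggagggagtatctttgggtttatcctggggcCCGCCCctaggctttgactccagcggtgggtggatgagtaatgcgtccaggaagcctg
Timp3: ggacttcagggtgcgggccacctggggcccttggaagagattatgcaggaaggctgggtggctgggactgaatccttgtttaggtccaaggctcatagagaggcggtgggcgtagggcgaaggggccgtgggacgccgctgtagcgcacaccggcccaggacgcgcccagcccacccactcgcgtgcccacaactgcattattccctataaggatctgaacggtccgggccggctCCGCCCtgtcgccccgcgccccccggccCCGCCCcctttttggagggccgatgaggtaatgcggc
Mmp14: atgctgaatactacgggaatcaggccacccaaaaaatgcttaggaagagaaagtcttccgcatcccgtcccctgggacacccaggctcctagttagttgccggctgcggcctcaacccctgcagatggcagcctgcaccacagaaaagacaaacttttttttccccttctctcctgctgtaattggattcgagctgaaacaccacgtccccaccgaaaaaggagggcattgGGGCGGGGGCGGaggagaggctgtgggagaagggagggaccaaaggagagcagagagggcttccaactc
Adam8: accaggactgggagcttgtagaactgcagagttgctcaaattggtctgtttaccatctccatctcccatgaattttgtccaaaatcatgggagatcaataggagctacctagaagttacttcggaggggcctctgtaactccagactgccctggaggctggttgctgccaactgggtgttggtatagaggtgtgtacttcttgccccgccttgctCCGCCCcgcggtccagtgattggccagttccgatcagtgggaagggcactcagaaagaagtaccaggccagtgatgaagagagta
Adam19: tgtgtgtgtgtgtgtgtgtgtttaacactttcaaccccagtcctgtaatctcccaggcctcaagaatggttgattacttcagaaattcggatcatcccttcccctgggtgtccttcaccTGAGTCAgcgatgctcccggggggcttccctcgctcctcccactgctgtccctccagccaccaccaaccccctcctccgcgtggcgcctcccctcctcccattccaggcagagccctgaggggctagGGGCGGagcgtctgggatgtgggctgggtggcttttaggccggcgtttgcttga
Adamts1: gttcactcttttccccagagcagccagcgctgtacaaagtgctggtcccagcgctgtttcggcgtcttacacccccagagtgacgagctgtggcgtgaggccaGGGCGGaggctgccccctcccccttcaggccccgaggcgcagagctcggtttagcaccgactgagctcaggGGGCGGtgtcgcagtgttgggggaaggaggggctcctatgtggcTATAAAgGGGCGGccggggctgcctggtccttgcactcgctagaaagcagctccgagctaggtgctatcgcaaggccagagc

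The capitals are GC boxes in all 6 windows, and in Adamts1 also a TATA box and in Adam19 also AP-1 letters. Timp1, Adam8 and Adam19 held 1 GC box, Timp3 and Mmp14 held 2 and Adamts1 held 3. GC boxes were in 48.1% of the 52 member promoters and in 35.9% of 27025 promoters of all genes (first promoter of each gene). These shares count the first listed promoter of Adam19, which is not the one printed and held 0 matches of the 6 motifs. The letters for STAT, NF-kB and CRE were in none of the 6 windows, and those for AP-1 were in the Adam19 window and in no other of them. The Timp3 window held 24 CG dinucleotides and that of Timp1 held 8, beside a median of 7 over all promoters.

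With the first listed promoter of each gene, AP-1 letters were in 10 of the 52 members (19.2%) and in 7.93% of all genes, and 6 of the 10 belong to 1 run of MMP genes. With every listed promoter they were in 12 of the 52 members (23.1%) and in 8.97% of all genes, a count chosen after the data were seen. Adam19 and Mmp12 were the members added. Of the 12 members 4 were tested (Adam19, Adam1b, Mmp12 and Mmp13), and 1 of them, Adam19, was called. 9 members lie side by side on GRCm38 chromosome 9, from 7272514 to 7699585: Mmp13, Mmp12, Mmp1b, Mmp3, Mmp10, Mmp8, Mmp27, Mmp20 and Mmp7. All 9 had a promoter, and in 6 the first one listed held both AP-1 and TATA box letters. TATA box letters were in 14.2% of all promoters. The last 100 bases before the start and the first 10 after it are printed for 4 of them with capitals at the AP-1 and TATA box letters. They lie at chr9:7272414-7272523, plus strand for Mmp13, chr9:7445722-7445831, plus strand for Mmp3, chr9:7502242-7502351, plus strand for Mmp10, and chr9:7691990-7692099, plus strand for Mmp7.
Mmp13: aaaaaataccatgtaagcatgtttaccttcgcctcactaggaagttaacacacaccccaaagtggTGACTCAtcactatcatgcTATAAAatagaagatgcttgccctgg
Mmp3: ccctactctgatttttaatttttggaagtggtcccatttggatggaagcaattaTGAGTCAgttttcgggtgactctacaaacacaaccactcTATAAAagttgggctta
Mmp10: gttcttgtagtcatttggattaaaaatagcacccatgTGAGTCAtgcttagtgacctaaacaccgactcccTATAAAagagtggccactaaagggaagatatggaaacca
Mmp7: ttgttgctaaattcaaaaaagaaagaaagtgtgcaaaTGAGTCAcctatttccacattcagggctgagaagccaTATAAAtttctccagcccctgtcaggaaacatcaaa

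The printed Mmp7 window holds the nearer of its 2 TATA box matches. In Mmp10 and Mmp7 the AP-1 letters began at base -63 from the start, in Mmp3 at -46 and in Mmp13 at -35. A match of letters is a description of the window and no evidence of binding.

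Of the 83 members 47 had enough counts to be tested, and 6 differed between the groups, of which 5 fell and 1 rose in AZD1152 kidneys. A call means a Benjamini-Hochberg adjusted p under 0.05 over 15774 genes in edgeR's quasi-likelihood test. The 5 that fell were Timp1, Adam8, Adam19, Adamts1 and Mmp14, and the 1 that rose was Timp3. The share called was 12.8% of tested members and 7.83% of all genes tested (4.81% lower and 3.02% higher), and no test was made of that excess. The 759 lower and 476 higher genes became 1480 and 233 with library totals in place of TMM scaling, under which the 6 members kept their calls. The median log2 fold change of the tested members was -0.38, beside -0.0006 over all genes, and 40 of 47 estimates were negative. In 13 tested members every AZD1152 library lay below every vehicle library, and in 1 every AZD1152 library lay above (11.6% and 11.2% of all genes, 22.8% in either direction). A member that passed the filter only through the group where it was high had to differ, so these counts describe the tested members and not all 83.

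**Figure D1:**
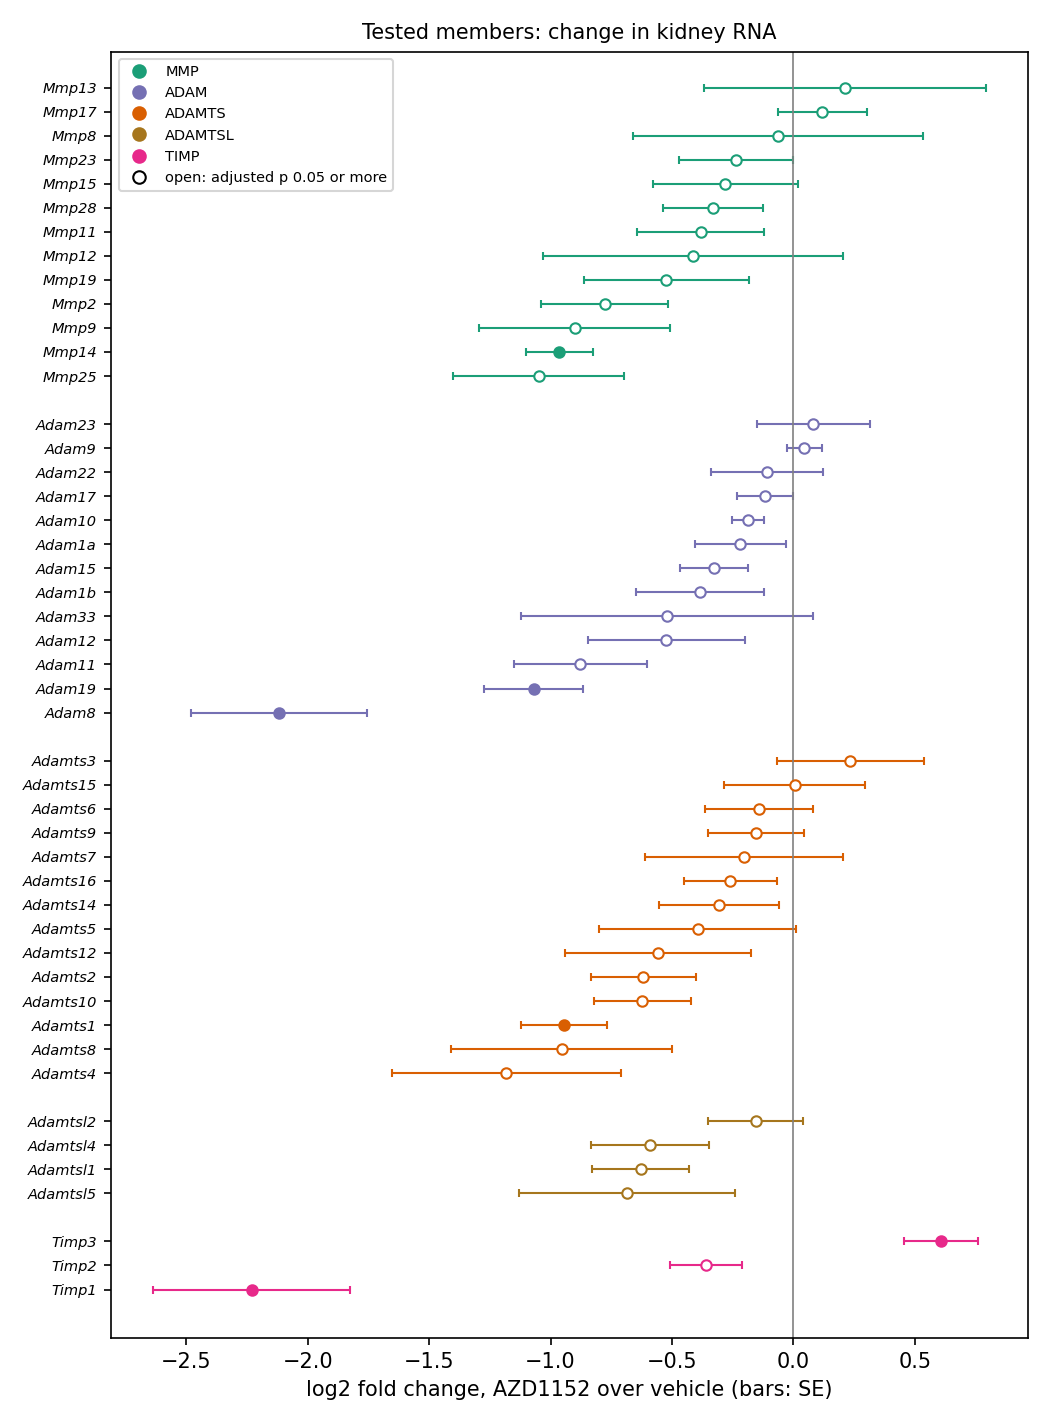
Log2 fold change of AZD1152 over vehicle kidneys for the 47 tested members, by family (x axis; bars are standard errors). Filled points are the 6 members with an adjusted p under 0.05: Timp3 lies to the right of 0 at 0.61, and Timp1 and Adam8 lie farthest to the left at -2.23 and -2.12.

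Of the inhibitors Timp1 fell and Timp3 rose. Timp1, an inducible inhibitor that is raised in inflamed and scarring tissue, had 0.544, 0.862, 1.53 and 1.42 CPM (counts scaled to library size) in AZD1152 replicates 1 to 4, against 5.70, 2.74 and 6.88 CPM in vehicle replicates 1 to 3. The highest treated library lay below the lowest vehicle library. Timp1 (ENSMUSG00000001131; GRCm38 chromosome X, 20870166 to 20874735, plus strand) fell by 2.23 on the log2 scale (SE 0.41; adjusted p = 0.0189 in edgeR). Its counts were low, at 9 to 24 per library in AZD1152 kidneys and 48 to 124 in vehicle kidneys. The call was lost without vehicle replicate 1 or 3 (adjusted p = 0.0572 and 0.0774 in edgeR), where the estimates were -2.14 and -1.95.

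Timp3, the inhibitor that binds to the matrix and also blocks ADAM17 and the aggrecan-cleaving ADAMTS enzymes, had 1834, 2281, 2094 and 1809 CPM in AZD1152 replicates 1 to 4, against 1485, 1432 and 1025 CPM in vehicle replicates 1 to 3. All 4 treated libraries were above all 3 vehicle libraries, and vehicle replicate 3 was the lowest. Timp3 (ENSMUSG00000020044; chromosome 10, 86300372 to 86349506, plus strand) rose by 0.61 ± 0.15 on the log2 scale (SE; adjusted p = 0.0442 in edgeR). This call was close to the threshold, and it was lost when any 1 of the 7 libraries was left out (adjusted p = 0.0564 to 0.105 in edgeR), with estimates from 0.46 to 0.71. Summed markers of the proximal tubule were also higher in every AZD1152 library, at 9931 to 11698 CPM, against 6905 to 8671 CPM in vehicle kidneys. Of the 6 markers 2 were called higher (Slc34a1 and Slc5a2). Slc34a1 alone averaged 4955 CPM in AZD1152 kidneys and 3104 CPM in vehicle kidneys. Lrp2, Cubn, Aqp1 and Slc22a6 each overlapped between the groups and were not called. Of 3 distal tubule markers 2 were called higher (Pvalb and Trpm6), as was 1 of 5 collecting duct markers (Atp6v1g3). The summed markers of these 2 segments overlapped between the groups, and 0 of 3 loop of Henle markers were called. The part of these markers in the Timp3 result was not tested.

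Timp2, which blocks MMP enzymes and also helps MMP14 to activate MMP2, had 49.3, 61.4, 73.0 and 54.9 CPM in AZD1152 replicates 1 to 4, against 72.7, 65.7 and 91.1 CPM in vehicle replicates 1 to 3. The groups overlapped through AZD1152 replicate 3. Its log2 fold change was -0.36 ± 0.15 (SE; adjusted p = 0.173 in edgeR). Timp4 was under the filter, with 16 counts over the AZD1152 libraries and 28 over the vehicle libraries, 19 of them in vehicle replicate 3.

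Per length, Timp3 outweighed every other member. Divided by kilobases of exon, its level was 246.1 ± 27.6 CPM per kb in AZD1152 kidneys and 161.4 ± 30.9 in vehicle kidneys (SD, n = 4 and 3). Adam9, Adam10, Timp2 and Adamts1 followed, averaged over the groups, at 33.7, 26.0, 17.5 and 14.7 CPM per kb. Timp3 alone made up 63.1% to 67.1% of the summed CPM per kb of the 83 members in AZD1152 libraries and 40.1% to 52.6% in vehicle libraries. The exons of Timp3 overlap those of Syn3 on the other strand over 1733 bases, but Syn3 had 840 counts over the 7 libraries and Timp3 192245.

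**Figure D2:**
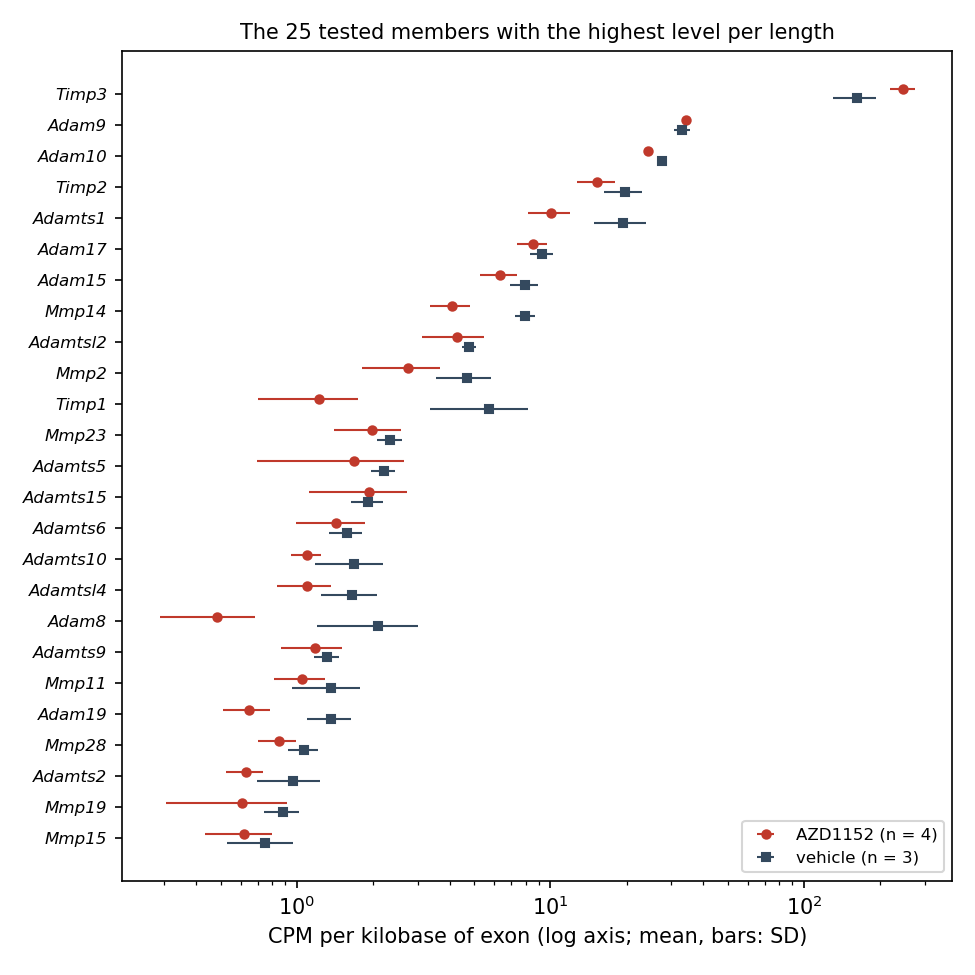
Level of the 25 tested members with the most CPM per kilobase of exon (log axis), as means with SD bars of 4 AZD1152 libraries (circles) and 3 vehicle libraries (squares). Timp3 stands apart at 246.1 and 161.4 CPM per kb, and circle and square lie well apart, with the circle lower, for Timp1, Adam8, Adam19, Mmp14 and Adamts1.

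Among the MMP genes the RNA of the membrane-type enzyme MMP14 fell. Mmp14, which cuts fibrillar collagen at the cell surface and activates MMP2, had 20.4, 24.5, 30.5 and 21.9 CPM in AZD1152 replicates 1 to 4, against 47.8, 43.0 and 51.5 CPM in vehicle replicates 1 to 3. All treated libraries lay well below all vehicle libraries. Mmp14 (ENSMUSG00000000957; chromosome 14, 54431612 to 54445364, plus strand) fell by 0.96 on the log2 scale (SE 0.14; adjusted p = 0.0106 in edgeR). It was the member with the smallest p and the only called member that stayed called without each of the 7 libraries in turn (adjusted p = 0.0098 to 0.0435 in edgeR). Mmp14 and Timp2 reads stood in a ratio of 0.399 to 0.418 in AZD1152 libraries and 0.566 to 0.658 in vehicle libraries. This ratio was chosen after its values were seen and is given without a test.

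Mmp2, a gelatinase activated by MMP14, had 5.86, 9.82, 13.2 and 8.0 CPM in AZD1152 replicates 1 to 4, against 13.8, 13.3 and 20.2 CPM in vehicle replicates 1 to 3. The groups touched without overlapping at 13.2 and 13.3 CPM. Its log2 fold change was -0.78 ± 0.26 (SE), which edgeR did not call (adjusted p = 0.102) and DESeq2 did (adjusted p = 0.037). Without AZD1152 replicate 3 edgeR called it (adjusted p = 0.0498). Mmp9, the gelatinase of neutrophils and macrophages, had 0.725, 1.39, 1.66 and 0.708 CPM in AZD1152 replicates 1 to 4, against 1.40, 3.02 and 1.89 CPM in vehicle replicates 1 to 3, which overlapped (log2 fold change -0.90 ± 0.39, adjusted p = 0.194 in edgeR).

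Mmp25, a membrane-anchored enzyme of leukocytes, had a larger estimate than Mmp14 but few counts, at 8 to 17 in AZD1152 libraries and 19 to 32 in vehicle libraries (log2 fold change -1.05 ± 0.35, adjusted p = 0.101 in edgeR). Mmp23, the third most abundant MMP per length after Mmp14 and Mmp2, had a log2 fold change of -0.24 ± 0.23 (adjusted p = 0.583 in edgeR). The other 8 tested MMP genes had estimates from -0.52 (Mmp19) to 0.21 (Mmp13, a collagenase), and 0 of them were called by edgeR or DESeq2 or had an unadjusted p under 0.05. Mmp12, macrophage elastase, ranged from 8 to 33 counts in AZD1152 libraries and from 8 to 52 in vehicle libraries.

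Of the 9 clustered MMP genes whose promoters are described above, 3 were tested, Mmp12, Mmp13 and Mmp8, with adjusted p of 0.733, 0.861 and 0.963 in edgeR. Mmp10 (stromelysin 2), under the filter, had 0, 0, 2 and 0 counts in AZD1152 replicates 1 to 4, against 6, 10 and 7 counts in vehicle replicates 1 to 3. Mmp7 (matrilysin), an enzyme known to be induced in injured tubules, had 0, 0, 6 and 0 counts in AZD1152 replicates 1 to 4, against 8, 5 and 32 counts in vehicle replicates 1 to 3. The Mmp10 groups did not overlap, and those of Mmp7 did, through AZD1152 replicate 3. When genes with low counts were kept in the test, Mmp10 was called lower (adjusted p = 0.0403 in edgeR) and Mmp7 was not (0.0731). At 0 counts, counting error alone leaves room for 0.181 to 0.212 CPM in the AZD1152 libraries. Mmp3 (stromelysin 1), with the same AP-1 and TATA box letters, had 8, 4, 4 and 2 counts in AZD1152 replicates 1 to 4 and 3, 11 and 17 in vehicle replicates 1 to 3. Mmp13 had 20, 9, 7 and 13 counts in AZD1152 replicates and 12, 21 and 3 in vehicle replicates.

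With TMM scaling 2 of 13 tested ADAM genes fell, both at a low level, while the abundant sheddases were not called. Adam8, a proteinase of myeloid cells that sheds adhesion molecules, had 1.57, 1.53, 2.42 and 3.47 CPM in AZD1152 replicates 1 to 4, against 9.25, 5.82 and 14.1 CPM in vehicle replicates 1 to 3. The groups did not overlap, and the vehicle libraries were spread widely. Adam8 (ENSMUSG00000025473; chromosome 7, 139978932 to 139992562, minus strand) fell by 2.12 on the log2 scale (SE 0.36; adjusted p = 0.0158 in edgeR). The call was lost without vehicle replicate 3 (adjusted p = 0.0621 in edgeR). Adam19, which can cut neuregulins and is made by stromal cells and leukocytes, had 5.2, 3.98, 5.61 and 3.61 CPM in AZD1152 replicates 1 to 4, against 7.97, 11.7 and 9.32 CPM in vehicle replicates 1 to 3. The groups did not overlap here either. Adam19 (ENSMUSG00000011256; chromosome 11, 46055992 to 46147343, plus strand) fell by 1.07 on the log2 scale (SE 0.20; adjusted p = 0.0215 in edgeR), and its call was lost without AZD1152 replicate 4 or vehicle replicate 3 (adjusted p = 0.0541 and 0.0735 in edgeR).

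Adam10, the main sheddase of Notch, cadherin and chemokine substrates, had 113.6, 118.4, 125.1 and 120.2 CPM in AZD1152 replicates 1 to 4, against 139.4, 130.9 and 137.5 CPM in vehicle replicates 1 to 3. The groups did not overlap, but the difference was small, with a log2 fold change of -0.19 ± 0.07 (SE; adjusted p = 0.113 in edgeR). With library totals in place of TMM scaling the Adam10 estimate was -0.34, and it was called lower (adjusted p = 0.0225 in edgeR). Adam17, which releases TNF and EGF receptor ligands, averaged 61.0 ± 8.14 CPM in AZD1152 kidneys and 66.1 ± 6.93 CPM in vehicle kidneys (SD, n = 4 and 3), with a log2 fold change of -0.12 ± 0.12 (adjusted p = 0.586 in edgeR). Adam9, the most abundant proteinase of the members per length, averaged 140.7 ± 3.25 CPM in AZD1152 kidneys and 136.3 ± 10.2 CPM in vehicle kidneys. Its log2 fold change was 0.05 ± 0.07 (adjusted p = 0.751 in edgeR), and with library totals in place of TMM scaling it was -0.10. Adam11, which lacks a working active site and is best known from neurons, had a log2 fold change of -0.88 ± 0.27 at 1.66 ± 0.50 CPM in AZD1152 kidneys and 3.05 ± 0.47 CPM in vehicle kidneys (adjusted p = 0.0844 in edgeR). The other 7 tested ADAM genes had estimates from -0.52 (Adam12) to 0.08 (Adam23). In 3 of them, Adam15, Adam1a and Adam1b, the AZD1152 libraries all lay below the vehicle libraries at adjusted p of 0.19, 0.52 and 0.413 in edgeR.

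**Figure D3:**
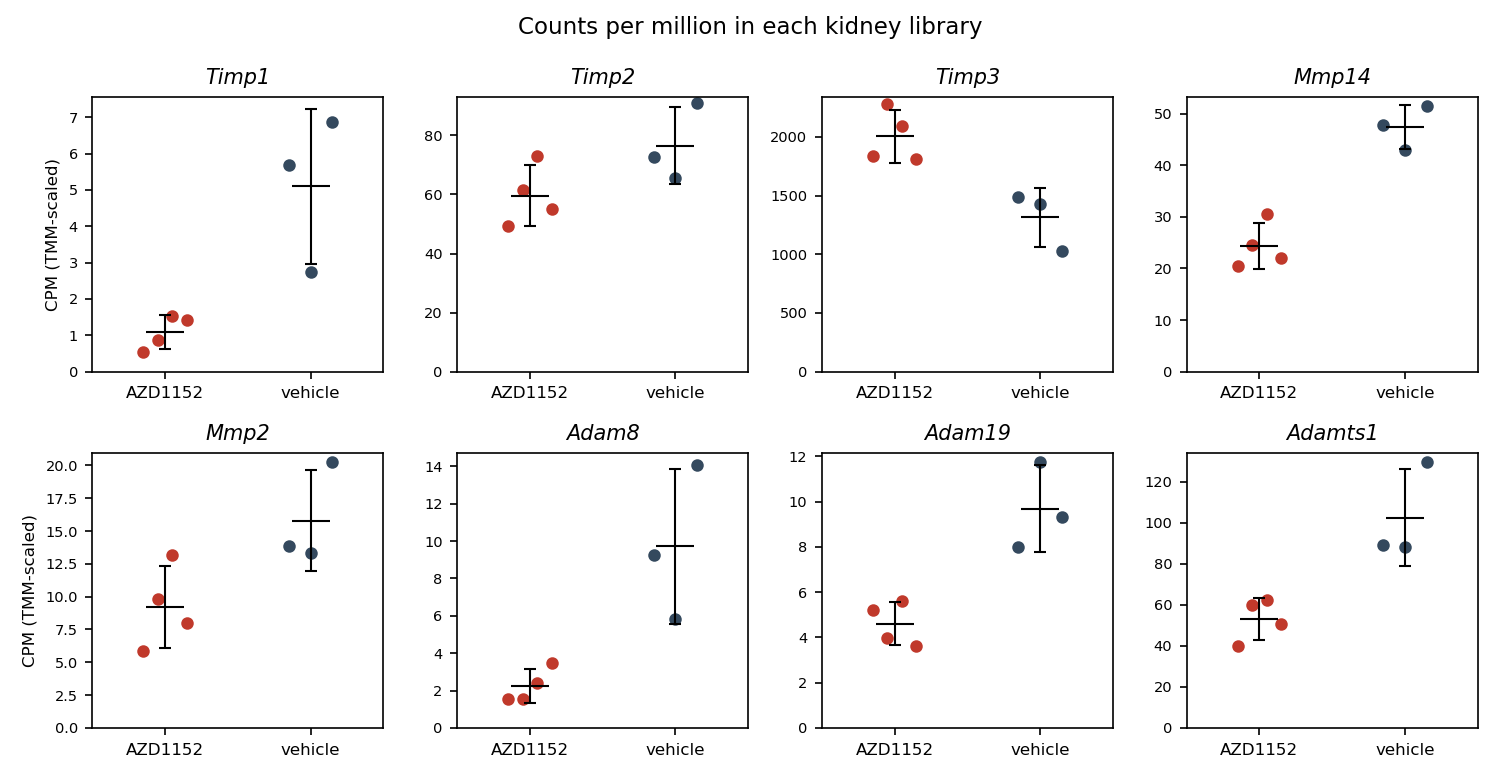
CPM (TMM-scaled) of 8 members in each library, with AZD1152 (4 libraries) left of vehicle (3 libraries) in every panel; the bar is the mean and the whisker the SD. Mmp14, Adam8, Adam19, Adamts1 and Timp1 are lower in all AZD1152 libraries, Timp3 is higher in all of them, and Timp2 overlaps.

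The RNA of the proteoglycan-cleaving enzyme ADAMTS1 fell, and the neighbouring gene Adamts5 was not called. Adamts1, which cuts versican and aggrecan, had 39.9, 59.8, 62.3 and 50.9 CPM in AZD1152 replicates 1 to 4, against 89.2, 88.3 and 129.8 CPM in vehicle replicates 1 to 3. The groups did not overlap, and vehicle replicate 3 was the highest. Adamts1 (ENSMUSG00000022893; chromosome 16, 85793827 to 85803113, minus strand) fell by 0.95 on the log2 scale (SE 0.18; adjusted p = 0.0206 in edgeR). The call was lost without AZD1152 replicate 4 or vehicle replicate 3 (adjusted p = 0.0567 and 0.0716 in edgeR). Of the ADAMTS genes it was the most abundant per length, at 10.04 ± 1.91 CPM per kb in AZD1152 kidneys and 19.3 ± 4.46 in vehicle kidneys (SD, n = 4 and 3).

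Adamts5, a major aggrecan-cleaving enzyme that lies on chromosome 16 from 85856173 to 85901828 on the same strand, had 7.37, 29.2, 24.7 and 10.9 CPM in AZD1152 replicates 1 to 4, against 25.7, 20.7 and 24.7 CPM in vehicle replicates 1 to 3. AZD1152 replicates 1 and 4 were low and replicates 2 and 3 were within or above the vehicle range. Adamts15, a further proteoglycan-cleaving enzyme, had 13.0, 29.3, 24.4 and 12.9 CPM in AZD1152 replicates 1 to 4, against 19.0, 23.0 and 17.4 CPM in vehicle replicates 1 to 3. Its replicates 2 and 3 lay above all vehicle libraries, and its replicates 1 and 4 below them. The log2 fold changes of Adamts5 and Adamts15 were -0.39 ± 0.41 and 0.01 ± 0.29 (SE; adjusted p = 0.602 and 0.993 in edgeR). Marker lists were set beside them after the values were seen. Summed fibroblast and pericyte markers stood at 229.8, 315.0, 367.9 and 218.0 CPM in AZD1152 replicates 1 to 4, also higher in replicates 2 and 3, and at 454.2, 436.4 and 607.3 CPM in vehicle replicates 1 to 3. Summed loop of Henle markers stood at 4728, 2442, 2861 and 4158 CPM in AZD1152 replicates 1 to 4, higher in the replicates where both genes were low, and at 4807, 3456 and 4997 CPM in vehicle replicates 1 to 3. Their part in this spread was not tested.

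Adamts10, which acts in microfibrils, had 9.85, 8.56, 10.1 and 7.50 CPM in AZD1152 replicates 1 to 4, against 12.5, 10.6 and 18.5 CPM in vehicle replicates 1 to 3, which did not overlap (log2 fold change -0.62 ± 0.20, adjusted p = 0.0905 in edgeR, and DESeq2 adjusted p = 0.0405). Adamts2, a procollagen N-propeptidase, had a log2 fold change of -0.62 ± 0.22 (adjusted p = 0.116 in edgeR). Adamts4, an inducible aggrecan-cleaving enzyme, had -1.18 ± 0.47 at 11 to 33 counts in AZD1152 libraries and 22 to 68 in vehicle libraries (adjusted p = 0.16 in edgeR). The other 8 tested ADAMTS genes had estimates from -0.95 (Adamts8) to 0.24 (Adamts3).

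None of the 4 tested ADAMTSL genes passed in edgeR, where 2 had an unadjusted p under 0.05, and DESeq2 called 1, Adamtsl1. Adamtsl1 had 3.93, 5.51, 4.78 and 4.46 CPM in AZD1152 replicates 1 to 4, against 5.53, 7.41 and 8.71 CPM in vehicle replicates 1 to 3. The groups met without overlapping, at 5.51 and 5.53 CPM (log2 fold change -0.63 ± 0.20, adjusted p = 0.0874 in edgeR). Adamtsl4, known in humans for its part in the lens fibres of the eye, and Adamtsl5 had -0.59 ± 0.24 and -0.68 ± 0.44. Adamtsl2, which binds fibrillin and was the most abundant of the family per length, had 23.1, 40.5, 43.4 and 30.0 CPM in AZD1152 replicates 1 to 4, against 40.4, 38.4 and 35.5 CPM in vehicle replicates 1 to 3 (log2 fold change -0.16 ± 0.19, adjusted p = 0.675 in edgeR).

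**Figure D4:**
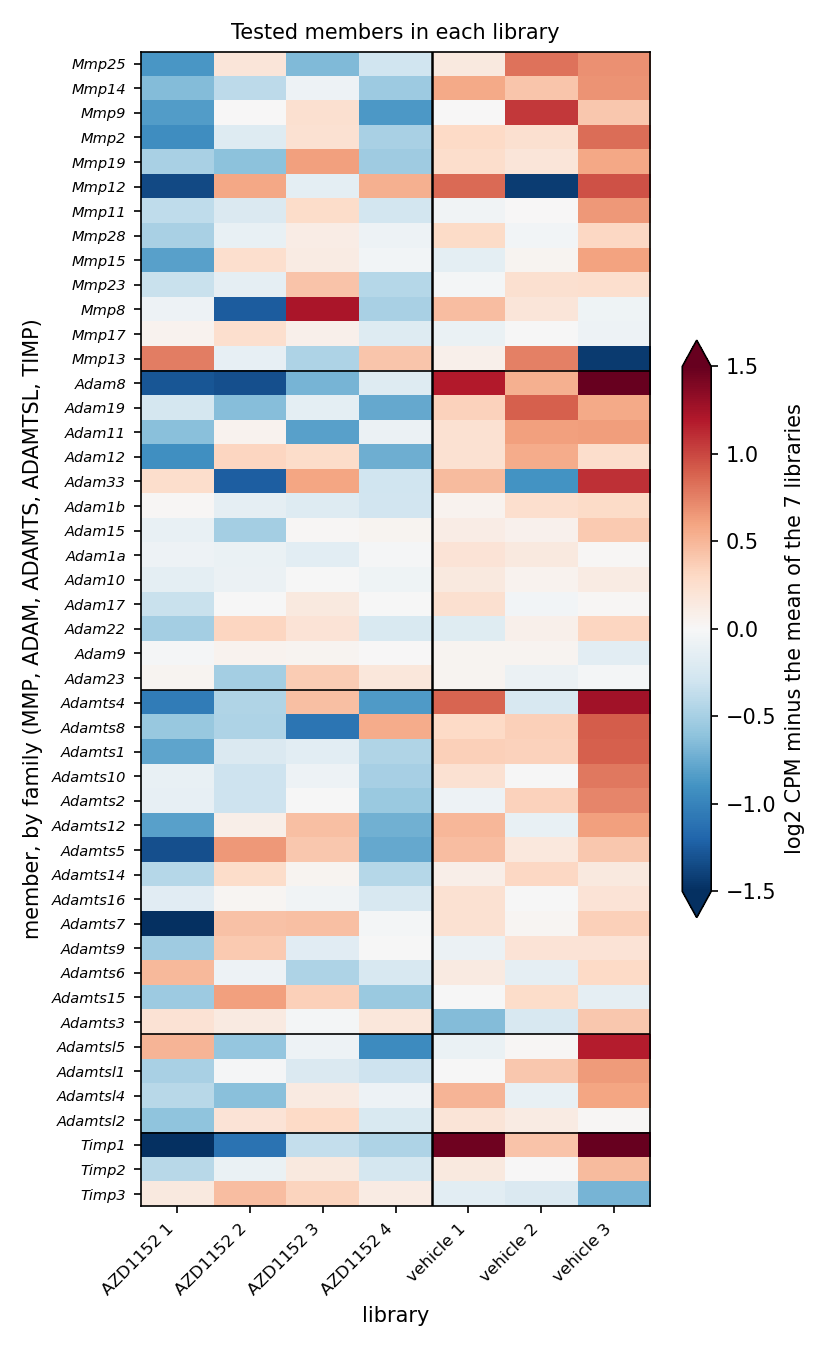
Log2 CPM of the 47 tested members in each library minus the member's mean over the 7 libraries, with AZD1152 left of vehicle (colours saturate at -1.5 and 1.5). Mmp14, Adam8, Adam19, Adamts1 and Timp1 are below their mean in every AZD1152 library, Timp3 is above it, and Adamts5 and Adamts15 are high in AZD1152 replicates 2 and 3 and low in 1 and 4.

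The 36 members that were not tested included 20 ADAM genes, many of them known from the testis. 13 had 0 counts in every library, 14 had 1 to 20 counts over the 7 libraries and 9 had more. Of the 33 ADAM genes 13 lie on chromosome 8, and of these Adam9 alone was tested. Adamts17 had 0 counts in all AZD1152 libraries and 5, 2 and 2 in vehicle libraries. Adamts13, the von Willebrand factor proteinase, had 21 counts over the AZD1152 libraries, 14 of them in replicate 1, and 16 over the vehicle libraries.

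Some markers of cells that make several of these genes differed between the groups as well. Summed macrophage markers stood at 335.3 to 505.2 CPM in AZD1152 kidneys and 702.6 to 1027 CPM in vehicle kidneys, and 5 of 8 fell. Summed T cell markers stood at 38.3 to 52.2 CPM in AZD1152 kidneys and 66.5 to 103 CPM in vehicle kidneys, and 5 of 7 fell. Cd8a, the most abundant T cell marker, averaged 25.4 CPM in AZD1152 kidneys and 30.3 CPM in vehicle kidneys. It overlapped between the groups and was not called, and Trac was lower without overlap but not called. Summed fibroblast and pericyte markers stood at 218.0 to 367.9 CPM in AZD1152 kidneys and 436.4 to 607.3 CPM in vehicle kidneys. Of these 8 markers 2 were lower, the collagen genes Col1a1 and Col1a2. Col3a1, Dcn, Lum, Pdgfra, Pdgfrb and Acta2 each overlapped between the groups and were not called. Tubular injury markers stood at 78.7 to 138.5 CPM in AZD1152 kidneys and 252.1 to 411.6 CPM in vehicle kidneys, and 4 of 5 fell. Of these 4 Lcn2 overlapped between the groups, at 15.6 CPM in AZD1152 replicate 3 and 15.4 CPM in vehicle replicate 2. Neutrophil markers overlapped, at 10.5 to 29.5 CPM in AZD1152 kidneys and 25.5 to 30.2 CPM in vehicle kidneys. Endothelial markers overlapped too, at 414.1 to 457.6 CPM in AZD1152 kidneys and 354.1 to 471 CPM in vehicle kidneys. So did B and plasma cell markers, at 35.1 to 506.9 CPM in AZD1152 kidneys and 126.6 to 788.3 CPM in vehicle kidneys. In bulk tissue fewer cells of a type and less RNA per cell cannot be told apart, and the part of these markers in the falls of Timp1, Mmp14, Adam8, Adam19 and Adamts1 was not tested. The libraries read as kidney: all 6 proximal tubule and all 5 podocyte markers were tested. Markers of fat and skeletal muscle reached at most 0.283 CPM summed. Adrenal cortex markers stood at 2.97 to 4.71 CPM in AZD1152 kidneys and 3.99 to 4.54 CPM in vehicle kidneys, and of these Star alone was tested.

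Other genes of the pathway were taken as 77 regulators, further metalloproteinases and substrates, of which 70 were tested, 14 fell and 1 rose (21.4% called, beside 7.83% of all genes). The median log2 fold change was -0.36. These genes were listed with earlier results of these data known, so a high share may come from that choice, and it was not tested. The calls were mostly substrates, with 13 of 35 lower and 1 higher, and several substrates are also among the markers above. Tnfrsf1b, a TNF receptor shed by ADAM17, had 14.6, 17.2, 21.6 and 20.2 CPM in AZD1152 replicates 1 to 4, against 50.1, 32.7 and 36.4 CPM in vehicle replicates 1 to 3. It fell by 1.11 on the log2 scale (SE 0.18, adjusted p = 0.0127 in edgeR), without overlap between the groups. The call held without each library in turn, as did those of Vcam1 and Cd44. With a block for the replicate numbers the Tnfrsf1b call was lost, and those of Vcam1 and Cd44 were kept. The adhesion molecule Vcam1 and the hyaluronan receptor Cd44 fell by 1.64 and 1.5, and the transmembrane chemokine Cxcl16 by 0.58 on the log2 scale, with edgeR adjusted p of 0.009, 0.00951 and 0.0264. The receptors Notch2, Tnfrsf1a and Axl, the matrix protein Spp1 and the collagen genes Col1a1 and Col1a2 fell too, by 0.34, 0.39, 0.68, 0.85, 1.31 and 0.88 on the log2 scale (adjusted p = 0.0187 to 0.0401 in edgeR). Each of the calls in Notch2, Tnfrsf1a, Axl, Spp1, Col1a1, Col1a2 and Cxcl16 was lost without any one of vehicle replicate 1, vehicle replicate 3 and AZD1152 replicate 4. Without those libraries one at a time 4, 3 and 3 pathway genes were called lower. Kl (klotho), named here after its values were seen as the gene that rose, whose ectodomain is shed by ADAM10 and ADAM17, had 838.7, 915.2, 865.0 and 818.0 CPM in AZD1152 replicates 1 to 4, against 481.6, 700.8 and 387.4 CPM in vehicle replicates 1 to 3. It rose by 0.72 ± 0.18 on the log2 scale (SE; adjusted p = 0.0447 in edgeR), and its call was kept without vehicle replicate 2, lost without each other library in turn (largest adjusted p = 0.134), and lost with library totals.

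Of the 24 tested regulators edgeR called 1, which fell (4.17%, beside 7.83% of all genes). DESeq2 called 4 of the regulators lower and 2 higher, where it called 13.8% of all genes. Rhbdf2 (iRhom2), which carries ADAM17 to the cell surface in immune cells, had 24.7, 16.6, 22.3 and 17.5 CPM in AZD1152 replicates 1 to 4, against 30.1, 30.6 and 31.6 CPM in vehicle replicates 1 to 3. It fell by 0.60 on the log2 scale (SE 0.14; adjusted p = 0.0384 in edgeR), with no overlap, and its call was kept without AZD1152 replicate 1 and lost without each other library in turn (largest adjusted p = 0.129). Chosen for its estimate after the values were seen, A2m, a broad proteinase trap, had a larger estimate of -1.83 ± 0.56 but missed the threshold (adjusted p = 0.0807 in edgeR), and DESeq2 called it. Of the 11 tested further metalloproteinases edgeR and DESeq2 each called 0, with 1 at an unadjusted p under 0.05 in edgeR. The kidney-rich meprin Mep1a averaged 981.0 CPM in AZD1152 kidneys and 944.2 CPM in vehicle kidneys, and neprilysin (Mme) 358.2 and 387.9 CPM.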

How the data were processed

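RNA of kidney tissue from 4 AZD1152 and 3 vehicle mice was analysed as counts per gene. The authors deposited whole-number read counts without normalization; per the submitters' processing notes CASAVA, HISAT2 2.0.5, DESeq2 and DESeq were named and the build was GRCm38. The read counter, strand setting and annotation release are not given in the sources used here, and the library steps in the labels' protocols name none that marks strand. Reads of a gene and of an overlapping gene on the other strand may therefore be mixed. Library totals were 14692113 to 17036862 counts, and 3 counts equal 0.166 to 0.212 CPM. These floors cover counting error only, as PCR copies were not told apart.

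Names, coordinates and exon lengths came from GENCODE mouse release M21 (GRCm38), which named 53360 of 53465 genes. Counts were filtered with filterByExpr, scaled by TMM and compared between groups, two-sided, by the quasi-likelihood test of edgeR 4.0.16 under R 4.3.3. SE is the log2 fold change divided by the root of F. CPM are TMM-scaled, and log2 CPM used a prior count of 2. The steps were tested on simulated counts. The submitters' design text speaks of 4 and 3 mice.

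The members, gene lists and tests were chosen with earlier results of these data known. Named with values were, in each family, all called members, the 4 with the smallest p and the 3 most abundant per length, and all TIMP genes; of the pathway genes, the 12 called with the smallest p. Other members and genes were named after their values were seen, and a few results that these rules would name are not reported here. A planned division of ADAM proteins by their active site was not made, since no protein sequences were used. No 2 libraries agreed within sampling noise (chi-square over degrees of freedom at least 9.97 in 21 pairs). Alternatives were other scalings and filters, DESeq2 1.42.0, a replicate block and leaving out each library.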

Additional observations from a re-analysis of the deposited data

How the results depend on the processing

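The falls of Mmp14, Adam8, Adamts1, Adam19 and Timp1 kept their direction under every alternative run, and so did the rise of Timp3. The 6 calls held with RLE and upper-quartile factors, library totals, no filter (which added Mmp10), a stricter filter and DESeq2. Leaving out 1 library gave 1 to 6 lower and 0 higher members, 163 to 619 lower and 60 to 475 higher genes in all, and 3 to 16 lower and 0 to 1 higher pathway genes. Without vehicle replicate 3, Mmp14 was the 1 member called. With library totals the median over all genes was -0.15 (log2), with 8 lower members (Adam10, Adam11 and Adamtsl1 added), 1480 lower and 233 higher genes, and 0 higher pathway genes. DESeq2 gave 8 lower members (Adamts10, Mmp2 and Adamtsl1 added), 1183 lower and 950 higher genes, and 4 higher pathway genes.

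Same-numbered libraries had correlations of -0.288, 0.209 and -0.119 of their deviations from the group means. Libraries with different numbers had correlations from -0.232 to 0.299. With so few libraries, these correlations cannot decide whether the replicate numbers of the labels pair the mice. A replicate block gave 3 lower and 0 higher members (Adam8, Adamts1 and Mmp14), 146 lower and 63 higher genes, and 3 lower and 0 higher pathway genes; with it Timp1, Timp3 and Adam19 had edgeR adjusted p = 0.0525, 0.0901 and 0.0957. Uncalled Adamts15 changed sign to -0.0093 with upper-quartile factors, -0.15 with library totals and -0.0073 with the stricter filter, and without single libraries it ran from -0.25 to 0.16; Adam9 turned to -0.10 with library totals and ran from -0.016 to 0.079 without single libraries. The cause was not tested. Mmp7, Mmp10, Mmp25 and Timp1 had few counts, and no other depth was tried.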
